A study of Mus musculus with 8 samples.

Results

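Nucleotide excision repair cuts a short stretch of damaged strand out of DNA and fills the gap from the intact strand. It is the main route by which mammalian cells remove bulky base adducts, and the adducts that activated PhIP, a heterocyclic amine of well-done meat, leaves on guanine belong to that kind. Its proteins act in order. Sensors find a distorted helix or a stalled RNA polymerase, the transcription factor TFIIH opens the strands, Xpa and replication protein A hold the opened site, a pair of nucleases cut on either side, and replicative polymerases with a ligase close the gap. The 32 genes described here code for these proteins and were chosen by function, from a list of names, with earlier results of these data known. Of them, 31 had at least 1 matched array element and 30 could be tested, out of 15854 features and 10951 named genes tested on the arrays. The 31 matched genes had 57 array elements between them. The first factor of the transcription-coupled branch, Ercc6, matched none. The single element of Cdk7, the kinase of TFIIH, was not marked as found by the scanner software on any of the 8 arrays, so Cdk7 was not tested.

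The samples were colon crypt epithelium of male hCYP1A mice, which carry the humanized CYP1A genotype on a C57BL/6 background and ate AIN93M diet. At 8 weeks of age, 5 mice were given PhIP by gavage in 1 dose of 200 mg/kg, and 3 mice were given PBS. After 24 hours the epithelium was scraped off with a glass slide under a dissection microscope, and 1 array was hybridised per mouse. The stated aim of the series was to list the genes that PhIP changes in this tissue. Mice of both groups carried the same genotype, and no group without it was analysed here. The titles number the mice separately, so the spread within a group is a spread between animals.

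The array of PhIP mouse 1 stood apart from the other 7. It was scanned at a gain of 700 against 650, and the scanner software marked 21.4% of its mouse probes as found, against 53.8% to 57.1% elsewhere. Its median correlation with the other arrays was 0.77, while those 7 correlated with each other at 0.97 or more. It is called the dim array, and results are given with it (8 arrays) and without it (7 arrays). The authors' matrix holds no column that matches this scan, and its column for PhIP mouse 1 equals the scan deposited with PhIP mouse 2, so which of these arrays belongs to which of those 2 mice is not settled. Mouse numbers below are those of the deposited scans, and both mice are labelled PhIP. As a check of the response, Cdkn1a, the p53 target that encodes p21, had a log2 fold change (PhIP minus PBS) of 2.51 (SE 0.17, limma adjusted p = 0.00602) and Eda2r, another p53 target, 2.23 (SE 0.21, adjusted p = 0.0369). These were the only features of 15854 past an adjusted p of 0.05 with 8 arrays, a background of 0.0126% called, and 5 of 15842 (0.0316%) passed with 7 arrays. The labelled tissue was checked against epithelial markers. Epcam, Krt8, Krt18, Krt19, Cdh1 and Cldn7 were found on all 8 arrays, while the elements for Krt20, Vil1, Cdx1 and Cdx2, which mark intestinal epithelium, were found on 0 arrays.

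None of the 30 tested repair genes passed. With 8 arrays every member had a limma adjusted p of 0.837 or more, and with 7 arrays the smallest was 0.337, for Ercc5. More members than not had higher means in PhIP mice, and with both sets of arrays the class medians were largest for the nucleases and the gap-filling enzymes, an order that did not hold within the arrays not re-dipped. With 8 arrays 19 of the 30 members (63.3%) had a positive log2 fold change, against 51.1% of all features, and their median was 0.14 against 0.0085. With 7 arrays 21 members (70%) were positive, against 55.8% of all features, and the median was 0.15 against 0.030. With 75th percentile scaling of 8 arrays in place of quantile normalization both medians were below 0, at -0.028 for the members and -0.15 for all features. The background also depended on detection. Of the 6632 features found on all 8 arrays, 4398 were positive, with a median of 0.14. The lean to positive values is therefore not shown to be particular to the repair genes.

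By class, the medians are given with 8 arrays and 7 arrays in turn. They were 0.074 and 0.017 for the 7 genes of damage recognition, and 0.18 and 0.22 for the 2 tested genes of transcription-coupled recognition. They were 0.094 and 0.021 for the 6 core subunits of TFIIH, and -0.26 and -0.023 for the 2 tested subunits of its kinase module. For the 4 genes of damage verification they were -0.27 and 0.22, so the sign of that class turned with the dim array. For the 3 nucleases they were 0.47 and 0.26, and for the 6 gap-filling genes 0.53 and 0.38. These class values are descriptions and were not tested against each other.

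**Figure D1:**
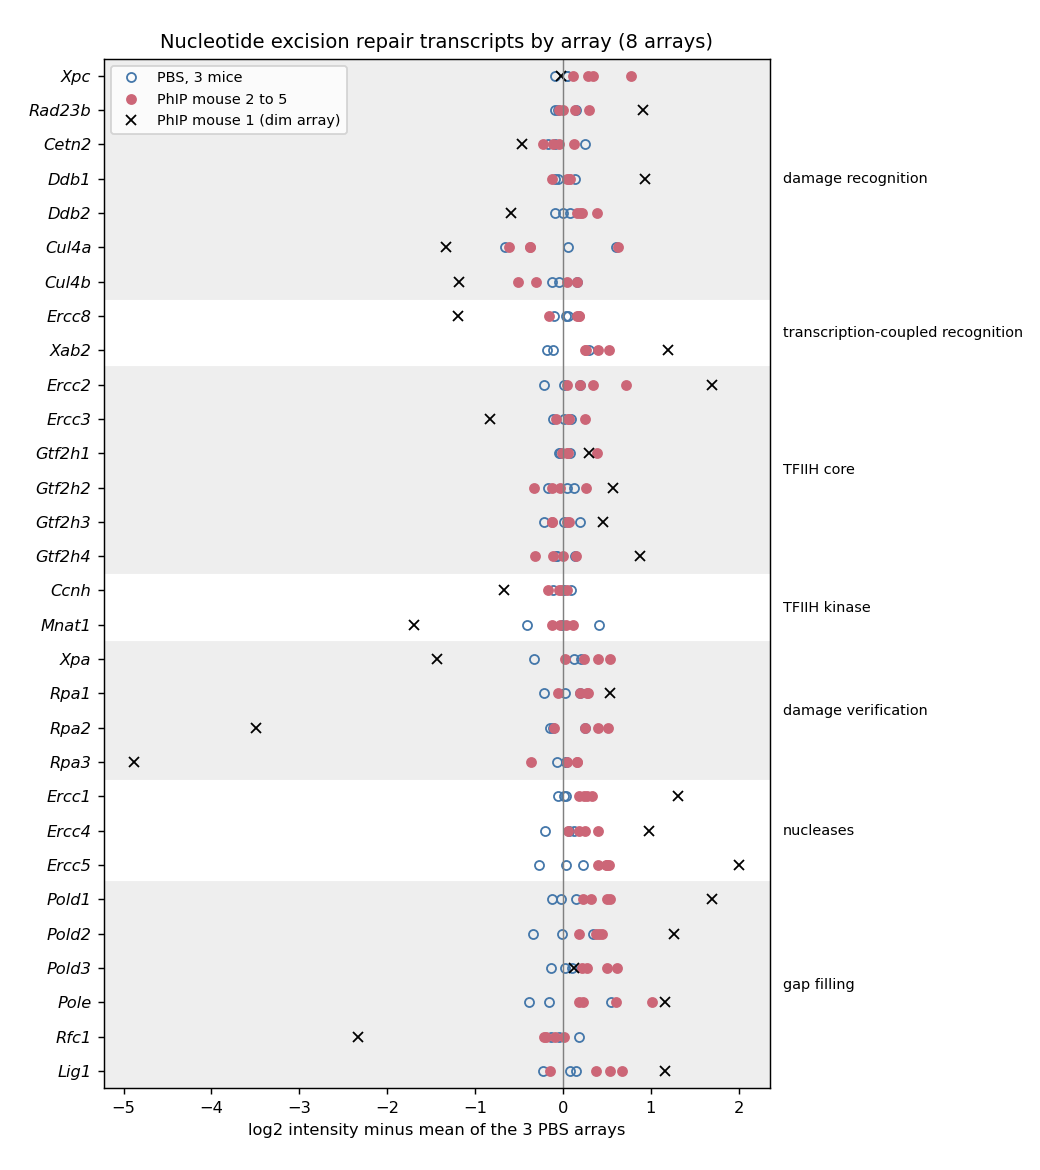
Log2 intensity of the 30 tested repair genes on each of 8 arrays, minus the mean of the 3 PBS arrays (horizontal axis), with 1 row per gene grouped by role. Open circles are the 3 PBS mice, filled circles PhIP mice 2 to 5, and crosses the dim array of PhIP mouse 1. The crosses lie outside the other 7 arrays for 27 of the 30 genes, and the filled circles lie to the right of the open circles for Ercc1, Ercc5, Pold1, Pold3, Xpc and Ddb2.

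Another way to read the arrays is to ask for which genes the groups do not overlap. With 8 arrays 4 members had every PhIP value above every PBS value, namely Ercc1, Ercc5, Pold1 and Pold3, against a background of 3.66% of all features, and 0 members had every PhIP value below, against 2.07%. With 7 arrays Xpc and Ddb2 joined them, which made 6 of 30 higher against a background of 5.99% and 0 lower against 2.89%. By an unadjusted limma p under 0.05, 0 members passed in either direction with 8 arrays, where 1.45% of all features passed as higher and 1.63% as lower. With 7 arrays 6 members passed, all higher, where the background was 5.81% higher and 3.46% lower. They were Ddb2, Xab2, Ercc1, Ercc5, Pold1 and Pold3. With re-dipping as a block on the same 7 arrays, Ddb2 (unadjusted p = 0.0759), Xab2 (0.112) and Pold1 (0.0514) no longer passed, and Ercc1, Ercc5 and Pold3 did.

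The 250 bases upstream of the annotated start of the 4 genes whose groups did not overlap on 8 arrays are shown to set the promoters of 2 nuclease genes beside those of 2 subunits of 1 polymerase. They come from RefSeq promoters on GRCm38.p6, are written 5′ to 3′ on the gene's strand, and carry GC boxes (GGGCGG or CCGCCC) in capitals. Ercc1 is at chr7:19344821-19345070 on the plus strand, Ercc5 at chr1:44147494-44147743 on the plus strand, Pold1 at chr7:44548816-44549065 on the minus strand and Pold3 at chr7:100121503-100121752 on the minus strand.
Ercc1: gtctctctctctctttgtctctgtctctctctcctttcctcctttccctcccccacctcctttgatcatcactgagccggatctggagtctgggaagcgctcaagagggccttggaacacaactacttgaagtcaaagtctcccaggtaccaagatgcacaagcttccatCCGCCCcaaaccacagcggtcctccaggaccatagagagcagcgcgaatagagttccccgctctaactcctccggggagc
Ercc5: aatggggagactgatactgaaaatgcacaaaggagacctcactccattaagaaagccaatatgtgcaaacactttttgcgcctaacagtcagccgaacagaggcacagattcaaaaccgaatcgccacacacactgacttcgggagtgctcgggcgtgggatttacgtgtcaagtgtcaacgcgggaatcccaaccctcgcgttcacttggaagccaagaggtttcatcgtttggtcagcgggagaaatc
Pold1: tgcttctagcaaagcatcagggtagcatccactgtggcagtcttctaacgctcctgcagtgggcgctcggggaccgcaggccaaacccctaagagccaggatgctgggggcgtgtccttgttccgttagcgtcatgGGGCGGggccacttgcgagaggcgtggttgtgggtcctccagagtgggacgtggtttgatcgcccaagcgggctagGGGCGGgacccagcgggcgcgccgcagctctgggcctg
Pold3: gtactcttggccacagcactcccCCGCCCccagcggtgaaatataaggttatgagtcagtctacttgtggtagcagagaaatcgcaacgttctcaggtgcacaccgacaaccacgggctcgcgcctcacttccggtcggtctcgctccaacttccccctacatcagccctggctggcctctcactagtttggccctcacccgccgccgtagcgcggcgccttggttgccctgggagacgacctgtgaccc
The Ercc1 window held 1 GC box, that of Pold1 held 2, that of Pold3 held 1 and that of Ercc5 held 0. The Ercc5 window held 1 CCAAT box and that of Pold3 1 ETS core (CCGGAA). Promoter windows were found for 27 members (30 windows, since Lig1 and Pold2 have several starts). The 5 members without a window were Xpc, Ddb2, Ccnh, Ercc3 and Pole, so the counts that follow, those of p53 half-sites among them, do not cover these genes. On either strand, a GC box occurred in 19 of the 30 windows (63.3%), against 32.7% of all 32851 promoters of the same length. A CCAAT box occurred in 15 (50%) against 33.8%, an ETS core in 11 (36.7%) against 12.0%, and a TATA box (TATAAA) in 1, a start of Pold2, against 12.4%. The p53 half-site occurred in 1 window, that of Cetn2, against 7.13% of all. The member windows had a median GC content of 59.8%, against 52.4% overall. These matches describe letters in a window and say nothing of binding.

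Among the damage sensors, Xpc encodes the subunit that binds distorted helices. Xpc stood at log2 intensities of 7.27, 7.40 and 7.40 in PBS mice 1 to 3 and 7.34, 8.13, 7.70, 7.47 and 7.65 in PhIP mice 1 to 5. The 4 PhIP arrays other than the dim one all lay above the PBS arrays, mouse 2 by the most, while the dim array lay among the controls. The log2 fold change was 0.30 (SE 0.26) with 8 arrays and 0.38 (SE 0.18, limma adjusted p = 0.569) with 7. Another element for Xpc gave 0.21 (SE 0.32) and 0.038 (SE 0.17). The 75th percentile scaling turned the value of Xpc to -0.029.

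Ddb2 is the damage-binding subunit of the UV-DDB complex. Ddb2 stood at log2 intensities of 8.54, 8.62 and 8.45 in PBS mice 1 to 3 and 7.95, 8.76, 8.73, 8.70 and 8.92 in PhIP mice 1 to 5. The dim array was the lowest of all, and PhIP mice 2 to 5 were above every PBS mouse. Its log2 fold change was 0.074 (SE 0.25) with 8 arrays and 0.24 (SE 0.10, limma adjusted p = 0.537) with 7. Its 3 other tested elements did not all share that sign, at -0.13 (SE 0.15), 0.065 (SE 0.19) and 0.079 (SE 0.19) with 7 arrays and at -0.48, -0.49 and -0.36 with 8. Within the re-dipped arrays it had -0.24, and 0.34 within the others.

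Rad23b, the partner that stabilises Xpc, had groups that overlapped. Rad23b stood at log2 intensities of 9.63, 9.87 and 9.67 in PBS mice 1 to 3 and 10.64, 9.73, 9.86, 10.02 and 9.68 in PhIP mice 1 to 5. The dim array was again outermost, here as the highest. The log2 fold change was 0.26 (SE 0.23) and, with 7 arrays, 0.097 (SE 0.11), and its other element had -0.30 (SE 0.37) and -0.33 (SE 0.35). The other 4 genes of the damage recognition class were Cetn2, Ddb1, Cul4a and Cul4b. Cetn2 is centrin 2, the third subunit of the Xpc complex, and Ddb1 is the partner of Ddb2. Cul4a and Cul4b are ubiquitin ligase scaffolds and not themselves sensors. The log2 fold changes of these 4 genes ran from -0.19 for Cul4a to 0.017 for Ddb1 with 7 arrays. With 8 arrays they ran from -0.41 to 0.20 for the same genes. Cul4a stood at the intensity floor on the dim array.

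In the transcription-coupled branch, Ercc8 encodes the CSA protein and Xab2 an Xpa-binding protein that also works in splicing. Xab2 stood at log2 intensities of 8.19, 8.13 and 8.60 in PBS mice 1 to 3 and 9.50, 8.71, 8.56, 8.57 and 8.83 in PhIP mice 1 to 5. PBS mouse 3 lay above PhIP mice 3 and 4, so the groups overlapped, and the dim array was highest. Xab2 had a log2 fold change of 0.53 (SE 0.26) with 8 arrays and 0.36 (SE 0.15, limma adjusted p = 0.519) with 7. It was 0.10 within the arrays not re-dipped and 0.88 within those re-dipped. Ercc8 stood at log2 intensities of 5.51, 5.64 and 5.67 in PBS mice 1 to 3 and 4.41, 5.76, 5.79, 5.45 and 5.79 in PhIP mice 1 to 5. The dim array was at the floor, and the other arrays of both groups overlapped. Ercc8 had -0.17 (SE 0.34) with 8 arrays and 0.089 (SE 0.15) with 7.

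TFIIH unwinds DNA around the lesion with the helicases Ercc2 (XPD) and Ercc3 (XPB). Ercc2 stood at log2 intensities of 8.73, 8.32 and 8.55 in PBS mice 1 to 3 and 10.23, 9.26, 8.58, 8.88 and 8.73 in PhIP mice 1 to 5. The dim array was highest and PhIP mouse 2 next, and PBS mouse 1 lay above PhIP mouse 3. Ercc2 had a log2 fold change of 0.60 (SE 0.37) with 8 arrays and 0.33 (SE 0.18) with 7, and its other tested element had 0.66 (SE 0.39) and 0.40 (SE 0.18). Gtf2h1 stood at log2 intensities of 10.62, 10.73 and 10.62 in PBS mice 1 to 3 and 10.96, 11.04, 10.65, 10.71 and 10.70 in PhIP mice 1 to 5. For this core subunit, the arrays of both groups overlapped, and PhIP mouse 2 was the highest. Gtf2h1 had 0.16 (SE 0.13) and 0.12 (SE 0.11). Ercc3, Gtf2h2, Gtf2h3 and Gtf2h4 lay between -0.11 and 0.12 with 8 arrays and between -0.071 and 0.074 with 7, and each of these 4 changed sign between them.

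The kinase module of TFIIH phosphorylates RNA polymerase II and is released before the repair cut. Ccnh stood at log2 intensities of 9.97, 9.89 and 9.76 in PBS mice 1 to 3 and 9.20, 9.71, 9.85, 9.83 and 9.92 in PhIP mice 1 to 5. The dim array was lowest, and the others overlapped. Cyclin H (Ccnh) had a log2 fold change of -0.17 (SE 0.19) with 8 arrays and -0.044 (SE 0.088) with 7. Mnat1 stood at log2 intensities of 9.63, 10.06 and 9.24 in PBS mice 1 to 3 and 7.95, 9.61, 9.52, 9.68 and 9.76 in PhIP mice 1 to 5. Among the 7 other arrays the PBS mice spanned the PhIP mice for this assembly factor of the module. Mnat1 had -0.34 (SE 0.43) and, with 7 arrays, -0.00085 (SE 0.18, interval -0.42 to 0.42 at the 95% level).

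Damage verification was the class that the dim array moved most. Xpa binds the opened strands and brings in the nucleases. Xpa stood at log2 intensities of 7.12, 7.21 and 6.67 in PBS mice 1 to 3 and 5.56, 7.53, 7.24, 7.03 and 7.39 in PhIP mice 1 to 5. The dim array was lowest by more than the span of the other arrays, and the other groups overlapped, with PhIP mouse 4 below PBS mice 1 and 2. Xpa had a log2 fold change of -0.046 (SE 0.48) with 8 arrays, 0.30 (SE 0.20) with 7, and 0.41 (SE 0.21) with the arrays of the authors' matrix.

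The 3 subunits of replication protein A, which coats single-stranded DNA, parted on the dim array. Rpa1 stood at log2 intensities of 11.01, 11.25 and 11.42 in PBS mice 1 to 3 and 11.77, 11.17, 11.42, 11.51 and 11.51 in PhIP mice 1 to 5. Rpa2 stood at log2 intensities of 7.96, 8.33 and 7.93 in PBS mice 1 to 3 and 4.58, 7.97, 8.33, 8.59 and 8.47 in PhIP mice 1 to 5. Rpa3 stood at log2 intensities of 9.32, 9.22 and 9.32 in PBS mice 1 to 3 and 4.41, 8.92, 9.45, 9.34 and 9.45 in PhIP mice 1 to 5. On that array Rpa1 was at its highest and Rpa2 and Rpa3 at their lowest, Rpa3 at the floor. With 8 arrays the log2 fold changes were 0.25 (SE 0.16) for Rpa1, -0.49 (SE 0.89) for Rpa2 and -0.97 (SE 1.13) for Rpa3. With 7 arrays the 3 subunits had 0.17 (SE 0.12), 0.26 (SE 0.18) and 0.0025 (SE 0.14) in the same order, and the groups overlapped for each.

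The nucleases were the only class in which every tested member was positive with both sets of arrays. Ercc5 encodes XPG, which cuts on one side of the lesion. Ercc5 stood at log2 intensities of 9.21, 8.89 and 9.40 in PBS mice 1 to 3 and 11.18, 9.65, 9.57, 9.69 and 9.67 in PhIP mice 1 to 5. All 5 PhIP mice lay above all 3 PBS mice, the dim array far above, and PhIP mice 2 to 5 lay within a narrow band. The log2 fold change of Ercc5 was 0.79 (SE 0.38, limma adjusted p = 0.837, interval -0.087 to 1.66) with 8 arrays and 0.48 (SE 0.12, adjusted p = 0.337, interval 0.18 to 0.77) with 7. These are 1.72-fold and 1.39-fold. By p it ranked 755 of 15854 features and 276 of 15842. Its other element had 0.34 (SE 0.23) and 0.32 (SE 0.18).

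Ercc1 is the non-catalytic partner in the nuclease that cuts on the other side. Ercc1 stood at log2 intensities of 9.82, 9.89 and 9.91 in PBS mice 1 to 3 and 11.18, 10.05, 10.12, 10.20 and 10.15 in PhIP mice 1 to 5. The groups did not overlap, and the gap between the highest PBS and the lowest PhIP array was small beside the distance of the dim array. The log2 fold change was 0.47 (SE 0.26) with 8 arrays and 0.26 (SE 0.072, limma adjusted p = 0.365, interval 0.087 to 0.42) with 7. Its 3 other elements were all positive, at 0.15 (SE 0.089), 0.029 (SE 0.11) and 0.24 (SE 0.12) with 7 arrays. Ercc4, or XPF, is the catalytic partner of Ercc1. Ercc4 stood at log2 intensities of 7.90, 8.17 and 8.24 in PBS mice 1 to 3 and 9.09, 8.29, 8.36, 8.50 and 8.16 in PhIP mice 1 to 5. PhIP mouse 5 lay below PBS mice 2 and 3, so the groups overlapped. Ercc4 had 0.38 (SE 0.25) and, with 7 arrays, 0.22 (SE 0.13, adjusted p = 0.659).

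**Figure D2:**
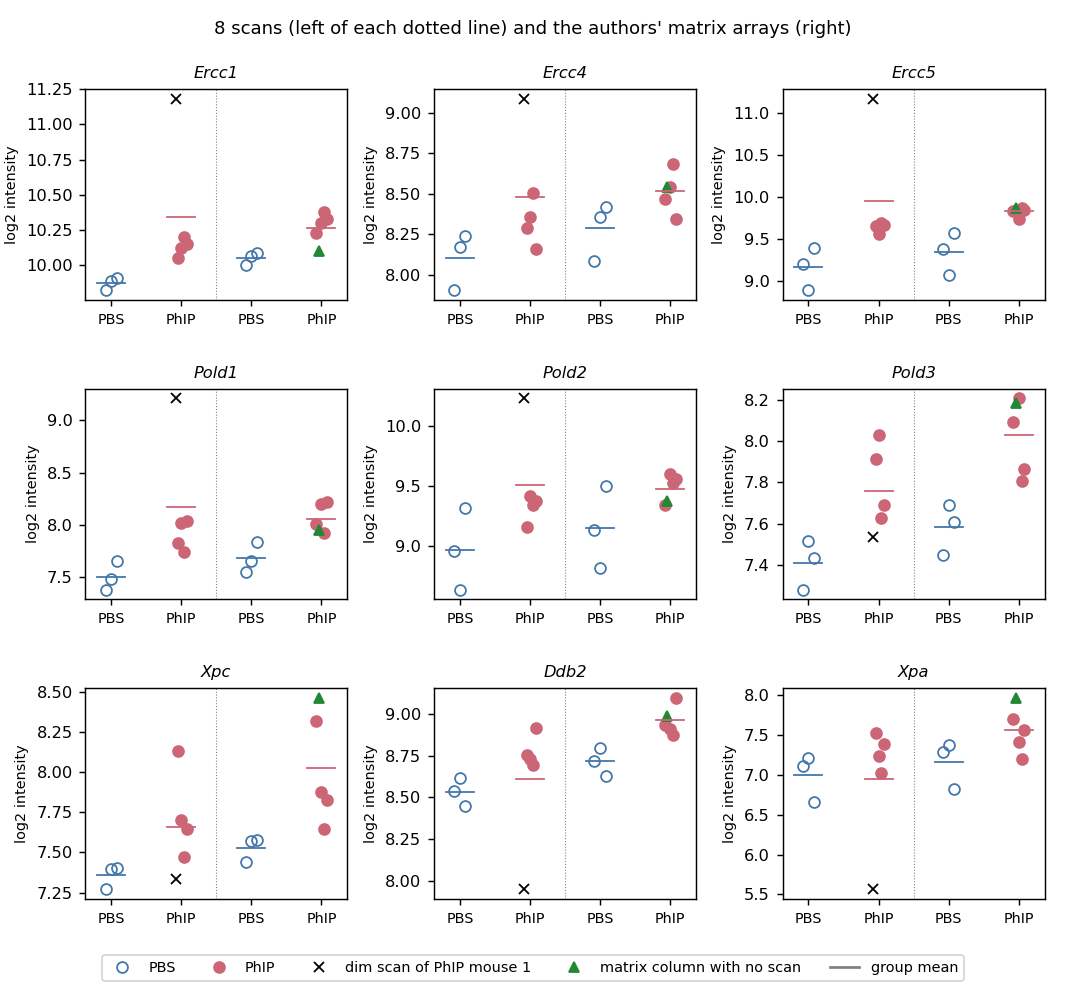
Log2 intensity (vertical axes, each panel with its own range) of the 3 nuclease genes, the 3 tested subunits of polymerase delta, Xpc, Ddb2 and Xpa. Left of each dotted line are the 8 scans, with the dim scan as a cross, and right of it are the arrays of the authors' matrix by the same steps, with the column that matches no scan as a triangle; horizontal lines are group means. The cross is far above the other PhIP arrays for Ercc1, Ercc5, Pold1 and Pold2 and below them for Ddb2 and Xpa. The triangle is above all 3 PBS arrays in every panel except that of Pold2, for Ercc1 only by little.

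Gap filling is shared with ordinary DNA replication. Pold1 is the catalytic subunit of polymerase delta. Pold1 stood at log2 intensities of 7.38, 7.48 and 7.66 in PBS mice 1 to 3 and 9.21, 7.83, 8.02, 7.74 and 8.04 in PhIP mice 1 to 5. All PhIP mice lay above all PBS mice, PhIP mouse 4 above PBS mouse 3 by the least. Pold1 had a log2 fold change of 0.66 (SE 0.36) with 8 arrays and 0.40 (SE 0.14, limma adjusted p = 0.458, interval 0.077 to 0.72) with 7. Pold3 is an accessory subunit of the same enzyme. Pold3 stood at log2 intensities of 7.28, 7.51 and 7.43 in PBS mice 1 to 3 and 7.54, 7.91, 8.03, 7.63 and 7.69 in PhIP mice 1 to 5. The groups did not overlap, although the dim array was close to the highest PBS array. Pold3 had 0.35 (SE 0.23) with 8 arrays and 0.41 (SE 0.15, adjusted p = 0.478, interval 0.060 to 0.75) with 7.

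The accessory subunit Pold2 and Pole, the catalytic subunit of polymerase epsilon, had groups that overlapped through PBS mouse 3. Pold2 stood at log2 intensities of 8.95, 8.63 and 9.31 in PBS mice 1 to 3 and 10.23, 9.16, 9.41, 9.34 and 9.37 in PhIP mice 1 to 5. Pole stood at log2 intensities of 5.03, 4.79 and 5.73 in PBS mice 1 to 3 and 6.35, 5.36, 6.20, 5.42 and 5.79 in PhIP mice 1 to 5. For both genes PBS mouse 3 was the highest control and lay above at least 1 PhIP mouse. Pold2 had a log2 fold change of 0.54 (SE 0.27) with 8 arrays and 0.35 (SE 0.16) with 7. Pole, which was also near the intensity floor of 4.41, had 0.64 (SE 0.33) and 0.51 (SE 0.29). Lig1, the ligase that seals the patch, had 0.52 (SE 0.29) and 0.36 (SE 0.21), and its 2 other elements were positive as well. Rfc1, the largest subunit of the clamp loader, was the exception of the class at -0.56 (SE 0.55) and -0.12 (SE 0.13).

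**Figure D3:**
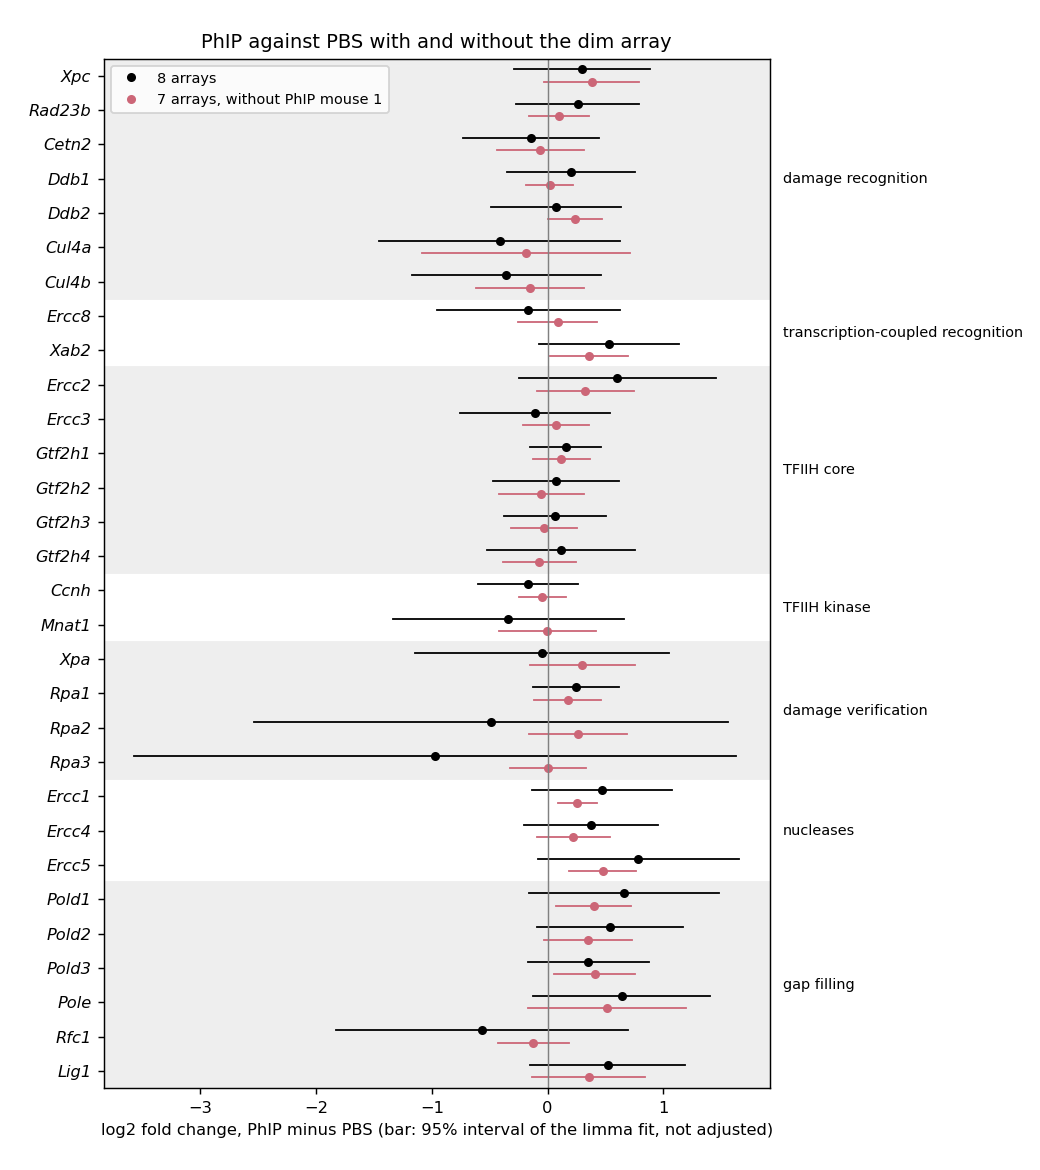
Log2 fold change, PhIP minus PBS, of the 30 tested repair genes (horizontal axis) with 8 arrays in black and with 7 arrays in red; bars are 95% intervals of the limma fit, not adjusted for the number of tests. With 8 arrays every bar crosses 0, and with 7 arrays the bars of Ddb2, Xab2, Ercc1, Ercc5, Pold1 and Pold3 do not.

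The arrays also differed in handling. The names of the deposited scans mark 4 arrays as re-dipped, those of PBS mice 1 and 2 and PhIP mice 1 and 3. This leaves PBS mouse 3 as the lone control without that mark. Its slide number, read from the same names, also falls in the range of the PhIP slides, unlike those of the other 2 controls. This control differed in cell type markers as well. With 7 arrays its mean over fibroblast markers was 11.64, against 10.87 and 10.83 in PBS mice 1 and 2. Its epithelial mean was 12.54, against 12.42 and 12.50. The part of this in the values below was not tested. PBS mouse 3 was the highest of the 3 controls for 3 of 3 nucleases, 3 of 6 gap-filling genes and 13 of 30 members, against 38.3% of all features. Set against that array alone, the PhIP arrays not re-dipped had a median of 0.22 over the nucleases and 0.096 over the gap-filling genes, while the re-dipped arrays, which include the dim one, had 0.81 and 0.97. These 2 sets differ in their PhIP arrays as well as in their controls. In the shared slide range, all 5 PhIP arrays against PBS mouse 3 gave 0.43 and 0.26, beside 0.47 and 0.53 with all controls. Within the arrays not re-dipped the order of the classes differed. The medians were 0.25 for the 2 TFIIH kinase genes, 0.22 for the nucleases, 0.20 for damage verification and 0.16 for damage recognition. Gap filling, at 0.096, lay below these classes, while the nucleases lay below the kinase genes only.

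Per gene, the arrays not re-dipped gave 0.27 (SE 0.14) for Ercc5, 0.22 (SE 0.14) for Ercc1, 0.082 (SE 0.22) for Ercc4, 0.22 (SE 0.22) for Pold1 and 0.31 (SE 0.23) for Pold3. On those arrays Pold2 had -0.023 (SE 0.17) and Pole -0.21 (SE 0.30). The signs of Pold2 and Pole thus turned among these 4 arrays, and that of Ercc4, whose groups also overlapped, did not. For Ercc5, Ercc1, Pold1 and Pold3 every PhIP array lay above every PBS array, so a subset of the arrays could hardly turn their sign. Their kept signs are therefore no check on re-dipping. In the shared slide range, where PBS mouse 3 is also the lone control, Pold2 had 0.19 (SE 0.43) and Pole 0.093 (SE 0.52). The re-dipped arrays gave 1.34 (SE 0.63) for Ercc5, 0.81 (SE 0.46) for Ercc1, 0.69 (SE 0.54) for Ercc4, 1.18 (SE 0.67) for Pold1, 0.39 (SE 0.64) for Pold3, 1.04 (SE 0.46) for Pold2 and 1.34 (SE 0.49) for Pole. With 7 arrays and re-dipping as a block, Ercc5 had 0.38 (SE 0.12), Ercc1 0.24 (SE 0.084), Pold1 0.39 (SE 0.16) and Pold3 0.46 (SE 0.17). These 4 genes had groups that did not overlap, so leaving out 1 further array from the 7 could hardly turn their sign. The values then ranged from 0.34 to 0.59 for Ercc5 and from 0.23 to 0.28 for Ercc1. Those of Pold1 ran from 0.34 to 0.48 and those of Pold3 from 0.33 to 0.47.

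The authors' own log2 matrix added 1 array to the comparison beyond the scans used here. This array is the column for PhIP mouse 2, which matched none of the scans. In that unmatched column 15 of 30 members (50%) stood above all 3 PBS arrays and 2 (6.67%) below, against 31.7% and 23.8% of 15837 features. The 3 nucleases and Pold1, Pold3 and Lig1 were among those above, and Pold2, Pole and Rfc1 lay within the PBS range. Over all columns of the matrix, taken through the same steps, 21 of 30 members were positive against a background of 55.7%, 6 were higher without overlap against 4.73%, and 7 had an unadjusted limma p under 0.05 as higher against 6.74%. The 6 without overlap were the same 6 genes as with the 7 scans. For Ercc1 this was by little, with 10.10 in the unmatched column and 10.09 in the highest PBS array. Ercc5 had 0.49 (SE 0.12, adjusted p = 0.219), Pold3 0.45 (SE 0.14) and Xpc 0.50 (SE 0.20). These columns share 7 arrays with the scans and are no independent set of mice.

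**Figure D4:**
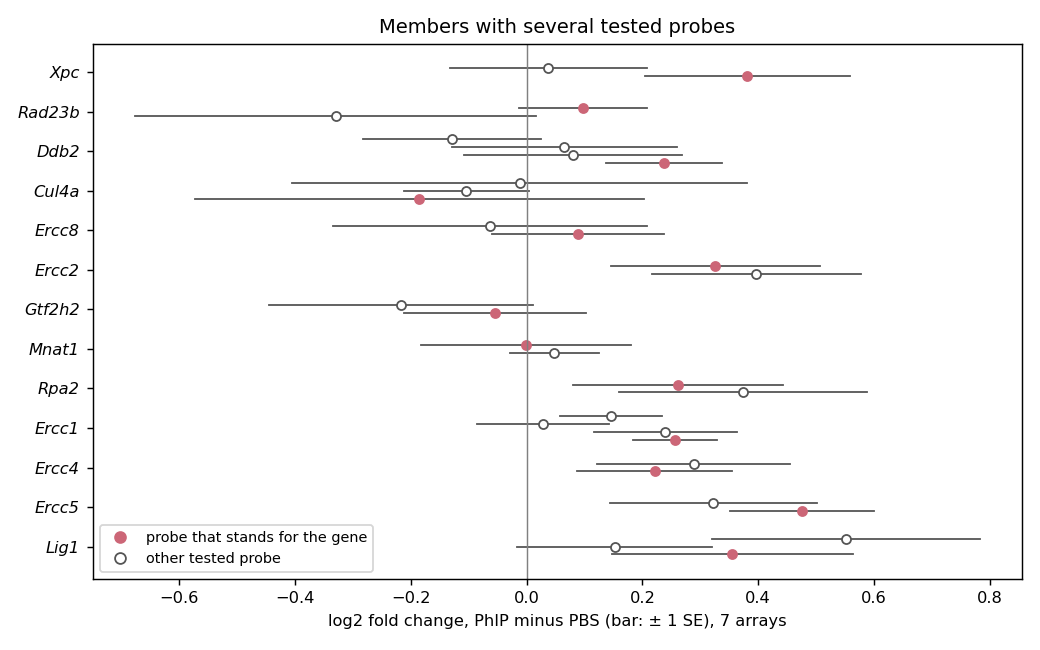
Log2 fold change, PhIP minus PBS, with 7 arrays (horizontal axis, bars of ± 1 SE) for each tested array element of the 13 repair genes that had several. Filled circles are the elements that stand for the gene and open circles the others; the elements share a sign for 9 genes, and for Rad23b, Ddb2, Ercc8 and Mnat1 they do not.

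The elements of a gene did not always give the same value. Of 13 repair genes with several tested elements, 4 had elements of opposite sign with 8 arrays (Cul4a, Ddb2, Gtf2h2 and Rad23b) and 4 with 7 arrays (Ddb2, Ercc8, Mnat1 and Rad23b). In 0 genes did elements reach an unadjusted limma p under 0.05 in opposite directions. The nuclease genes Ercc1, Ercc4 and Ercc5 had 4, 2 and 2 tested elements, and all were positive with both sets of arrays.

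Other genes of the same machinery and of replication give the frame for these values. Of 22 further repair genes, such as Pcna and other clamp loader and polymerase epsilon subunits, 16 were measured. With 8 arrays 11 (68.8%) were positive with a median of 0.14, and with 7 arrays 12 (75%) with a median of 0.19. Of all features, 51.1% were positive with 8 arrays and 55.8% with 7. None passed limma's adjusted threshold either way. At an unadjusted limma p under 0.05, 0 passed with 8 arrays, where 1.45% of all features were higher and 1.63% lower. With 7 arrays 2 passed, both higher, where 5.81% were higher and 3.46% lower. Pole3, a small subunit of polymerase epsilon, had 0.37 (SE 0.22) with 8 arrays and 0.39 (SE 0.15) with 7. Rfc4, a clamp loader subunit, changed sign between them, at -0.056 (SE 0.58) and 0.41 (SE 0.17). Of 16 genes of S phase, 12 were measured. With 8 arrays 5 (41.7%) were positive with a median of -0.043, and with 7 arrays 8 (66.7%) with a median of 0.13. Mcm7, of the replicative helicase, also changed sign, at -0.056 (SE 0.56) with 8 arrays and 0.40 (SE 0.14) with 7. Rrm1, of ribonucleotide reductase, had 0.045 (SE 0.48) and 0.38 (SE 0.24).

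Several lists of cell type markers differed between the groups, while the endothelial ranges overlapped with both sets of arrays. With 7 arrays all 6 measured epithelial markers had a positive log2 fold change. With 8 arrays 4 of them did, and 2 were negative. With 7 arrays their mean log2 intensity was 12.42 to 12.54 in PBS and 12.56 to 12.74 in PhIP mice, without overlap. With 8 arrays it was 12.28 to 12.40 and 12.42 to 12.60, also without overlap. The mean of 7 fibroblast markers was 10.83 to 11.64 in PBS and 10.20 to 10.58 in PhIP mice with 7 arrays. With 8 arrays it was 10.68 to 11.50 and 9.53 to 10.42. All 7 had a negative log2 fold change with both sets. With 7 arrays, smooth muscle markers were negative for 6 of 6 genes (11.70 to 11.78 against 11.32 to 11.68), immune markers for 5 of 5 (7.33 to 7.69 against 6.84 to 7.19), endothelial markers for 3 of 4 (8.00 to 8.23 against 7.78 to 8.23) and erythroid markers for 3 of 4 (8.90 to 9.34 against 5.64 to 8.56). With 8 arrays the negative markers were 6 of 6 for smooth muscle (11.55 to 11.64 against 10.44 to 11.53), 3 of 5 for immune cells (7.16 to 7.52 against 6.67 to 7.73), 3 of 4 for endothelium (7.82 to 8.06 against 7.42 to 8.06) and 2 of 4 for erythroid cells (8.74 to 9.18 against 5.48 to 8.72). The immune ranges thus overlapped with 8 arrays and not with 7. With the authors' arrays the erythroid ranges overlapped, at 8.90 to 9.34 in PBS and 5.62 to 9.39 in PhIP mice. With 7 arrays the erythroid mean of PhIP mouse 2 was 8.56, while those of PhIP mice 3 to 5 were 6.37, 6.11 and 5.64. Ptprc was found on 0 arrays and Kdr on 2, and Hbb-b1 matched no element. The part of these shifts in the repair values was not tested, and in such bulk samples fewer cells of a type and less RNA per cell cannot be told apart.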

How the data were processed

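Total RNA of 8 colon epithelium samples was labelled and read in 1 colour on spotted long oligonucleotides. GenePix Pro 4.1.1.4 read the scans, per the file headers. The deposited intensity used here was each spot's median minus its local background, and the deposited quality score, the flag, marks a spot as found, not found or bad. Log2 values made up the deposited matrix. Each of 7 columns equalled the log2 intensity of 1 scan plus a constant (100% of probes within 0.02), so it was not centred per gene. No source used here says where the constants come from, and the matrix columns' medians lay between 4.68 and 5.13.

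The member genes and other lists were chosen with earlier results of these data known. Probes were named through RefSeq accessions (assembly GRCm38.p6), which gave 1 symbol for 23071 of 35078 mouse probes and none for 12007. Intensities were quantile normalized between arrays, raised to percentile 5 of the found values (log2 of 4.41 with 8 arrays, 4.57 with 7) and put on the log2 scale. Values at that floor are bounds. Probes found on at least 3 arrays were tested, 23 flagged bad were left out, and of several probes of a gene the one with the highest mean was taken. The 5 PhIP and 3 PBS arrays were compared in R 4.3.3 with limma 3.58.1 (lmFit and trended eBayes). Its 2-sided p-values were adjusted over all features by Benjamini-Hochberg, with a threshold of 0.05. The number of arrays limits the precision, and the steps were tested on simulated data.

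Values on every array are given for members past the threshold, for the 2 of each role with the smallest unadjusted p with 8 or with 7 arrays, and for Xpc, Ddb2, Xpa, Ercc1, Ercc4 and Ercc5. Of the other repair genes and the S phase genes, the 2 with the smallest p with 7 arrays are named. Alternatives changed the background (normexp, offset 50), the scaling, the floor, the filter on dim probes, the rule for several probes, the arrays, the batch terms and the variance model. Figures used matplotlib 3.10.9 in Python 3.11.15.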

Additional observations from a re-analysis of the deposited data

Results flagged for a closer look

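Of 28 values tested for an array far from the rest of its group (20 named genes, 7 class medians and the median over all members, in the 5 PhIP arrays), 14 met the criterion, and all 14 lay on the dim array of PhIP mouse 1. Chance gives such a gap in about 1 of 20 groups. The log2 intensities on that array were above the other PhIP arrays for Xab2 at 9.50, Ercc1 at 11.18, Ercc5 at 11.18, Pold1 at 9.21 and Pold2 at 10.23. They were below the others for Ddb2 at 7.95, Ercc8 at 4.41 and Rpa3 at 4.41 (both at the floor), Mnat1 at 7.95, Xpa at 5.56 and Rpa2 at 4.58. The median deviation from the PBS mean was -1.18 for the TFIIH kinase genes, -2.47 for damage verification and 1.31 for the nucleases on that array. On the other 4 PhIP arrays the class medians were -0.098 to 0.082, -0.080 to 0.34 and 0.18 to 0.40 in the same order. The dim array lay outside the other 7 for 27 of 30 members (15 above and 12 below) and for 76.4% of all features. How its scan came to differ was not tested.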

How the results depend on the processing

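No repair gene was called by limma in the main analysis or in any of 39 other settings, 12 of them chosen after seeing the data, and the smallest adjusted p of a member was 0.153, for Ercc5 with the authors' matrix as deposited. The count of all features called was 2 in the main analysis. It was 1 with 75th percentile scaling, with the floor at percentile 10, without a variance trend and with re-dipping as a block. It was 11 with array weights and 11 with the authors' arrays by the main steps, and 20 with the authors' matrix as deposited. It was 0 with cyclic loess (786 features at an unadjusted p under 0.05), with the mean over probes (505), with the replicate block (304), within the arrays not re-dipped (1288), within the re-dipped arrays (149) and within the shared slide range (244). With the slide range as a block the 2 called were both lower. Leaving out 1 array in turn gave 0 to 5. With 7 arrays it was 5, and 5 with 75th percentile scaling, 5 with cyclic loess, 6 with array weights and 4 with the mean over probes. Leaving out 1 further array gave 2 to 12, with 4 without PBS mouse 1, 8 without PBS mouse 3 and 12 without PhIP mouse 2.

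The median over the members, 0.14, moved to -0.028 with 75th percentile scaling, to 0.25 over probes found on all arrays and to 0.34 within the re-dipped arrays. The median of all features moved to -0.15 and 0.14 in the first 2 of these settings. For Ercc1, Ercc5, Pold1 and Pold3, whose groups did not overlap, settings that only leave out arrays could hardly turn the sign. Of the 20 named genes, 8 kept their sign in every planned setting (Xab2, Ercc2, Gtf2h1, Ercc1, Ercc4, Ercc5, Pold1 and Pold3). For the rest, the value that reversed was -0.22 with 75th percentile scaling, -0.11 with cyclic loess, -0.31 with the mean over probes and -0.24 within the re-dipped arrays for Ddb2. It was -0.029 with 75th percentile scaling for Xpc and -0.019 with the mean over probes for Rad23b. Within the arrays not re-dipped it was -0.023 for Pold2, -0.21 for Pole, -0.019 for Rpa1, 0.060 for Ccnh, 0.44 for Mnat1, 0.42 for Rpa2 and 0.65 for Xpa. With the authors' matrix as deposited it was 0.061 for Ccnh, 0.091 for Mnat1, 0.25 for Rpa2, 0.051 for Rpa3 and 0.38 for Xpa. With the authors' arrays by the main steps it was 0.063 for Ercc8, 0.0089 for Mnat1, 0.23 for Rpa2 and 0.41 for Xpa. With array weights it was 0.089 for Ercc8, 0.29 for Rpa2, 0.0095 for Rpa3 and 0.19 for Xpa. With cyclic loess it was 0.057 for Ercc8, 0.00013 for Rpa2 and 0.20 for Xpa. It was 0.0054 with normexp background for Xpa, 0.29 for Xpa both within the shared slide range and with that range as a block, and 0.065 and 0.066 in these settings for Mnat1. Leaving out 1 array in turn gave ranges of -0.0022 to 0.24 for Ddb2, -0.25 to 0.089 for Ercc8, -0.74 to 0.26 for Rpa2, -1.26 to 0.0025 for Rpa3 and -0.21 to 0.30 for Xpa. The cause of these reversals was not tested.

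Mice of the same number were fitted with the number as a replicate block, which gave -0.057 for Ddb2 and a median of 0.23 over the members. The deviations of same-numbered mice correlated at -0.088, 0.19 and -0.12, and those of different numbers at -0.20 to 0.26. These values cannot decide on pairs, since the arrays of PhIP mice 1 and 2 are not settled. The PhIP mean behind the deviations also includes the dim array. The titles number the mice of each group separately, and the numbers were not taken as pairs. Fits within the arrays not re-dipped or the shared slide range rest on 1 PBS array, and the lone sample is assumed to vary like the PhIP arrays. Dim signal limits Pole, Ercc8 and Cul4a most, and 13 of the 30 members were not found on every PhIP array, all 13 through the dim one.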
